A study of Mus musculus with 11 samples.

Results

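DNA repair was followed through 31 listed genes of base excision, mismatch, nucleotide excision and double-strand break repair, matched by annotated symbol, with the brightest probe kept for each gene. A probe was found for 30 of them, among 19057 genes with a probe. Xrcc2 was not analysed here. The samples were 11 mammary tumours taken from female mice at 12 weeks, 5 from PyMT/SIRT6 mice and 6 from PyMT mice, each run on a single Illumina WG-6 array. All the mice carried the PyMT transgene, the polyoma middle T oncogene that gives rise to mammary tumours. The PyMT/SIRT6 mice also carried the Sirt6BAC allele, an extra Sirt6 gene on a bacterial artificial chromosome. The labels name neither the promoter of the PyMT transgene nor the strain background. They also leave unstated whether the tumours are from separate animals, and p-values then measure only the spread between these samples.

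Base excision repair removes single damaged bases through a glycosylase, an endonuclease that cuts the bare site, a polymerase and a ligase. Mismatch repair corrects copying errors, and nucleotide excision repair cuts out bulky lesions such as those made by ultraviolet light. Double-strand breaks are signalled by the kinases Atm and Atr and mended by homologous recombination, which copies an intact chromatid and so works mainly in dividing cells, or by end joining, which does not need a copy. SIRT6, a chromatin deacylase, is known to be recruited to DNA breaks and to stimulate PARP1. The comparisons here ask whether transcripts of these pathways differed with the extra Sirt6 allele, and whether they followed the mitotic content of each tumour.

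Sirt6 itself averaged 8.37 in PyMT/SIRT6 tumours and 7.76 in PyMT tumours on the log2 intensity scale, with no overlap (exact permutation p = 0.002165, the lowest value that 5 against 6 arrays allow). The tissue label held: the 8 luminal epithelial markers, Krt8 the brightest, averaged 10.17 ± 0.15 in PyMT/SIRT6 tumours and 10.22 ± 0.26 in PyMT tumours (SD, n = 5 and 6). The arrays differed in skeletal muscle content. The mean of 10 muscle markers reached 10.77 (PyMT/SIRT6 replicate 1), 11.57 (PyMT/SIRT6 replicate 4), 12.58 (PyMT/SIRT6 replicate 5) and 12.64 in PyMT replicate 5, against 7.28 to 8.72 in the other 7 arrays. The 8 basal epithelial markers averaged 8.99 ± 0.07 in PyMT/SIRT6 tumours and 9.28 ± 0.18 in PyMT tumours (SD, n = 5 and 6; exact permutation p = 0.0152), each of the 8 being lower on average in PyMT/SIRT6 tumours. The part of basal content in the repair results was not tested. Macrophage markers averaged 9.11 ± 0.20 in PyMT/SIRT6 tumours and 8.91 ± 0.12 in PyMT tumours (SD, n = 5 and 6; exact permutation p = 0.0801), with all 7 higher on average in PyMT/SIRT6 tumours, and the muscle mean was 1.24 higher on the log2 scale in PyMT/SIRT6 tumours (exact permutation p = 0.368), with all 10 higher. In bulk tumour RNA, fewer cells of a type and less RNA per cell cannot be told apart. The deposited intensities already shared their quantiles across arrays. The number of arrays limits the precision.

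Many repair transcripts were close to the dim end of the scale. Of the 30 genes, 26 passed the filter that left out the dimmer 50% of features, set at a mean of 7.31. Brca1 and Nbn (homologous recombination), Xrcc5 (a Ku subunit of end joining) and Atr did not pass and were not tested; their arrays lay between 7.11 and 7.37. A further 8 genes passed but stayed below the brightest 25% of features (limit 7.94), with means of up to 7.57. They were the glycosylases Ogg1, Mutyh and Neil1, the mismatch nuclease Pms2, the recombination genes Brca2 and Xrcc3, the end-joining kinase Prkdc and the end-joining ligase Lig4. Across the 12 dim genes the highest array exceeded the lowest by at most 1.27-fold, and such values understate changes in RNA. The other 18 genes had means from 8.02 upward, and in these the highest array exceeded the lowest by 1.33-fold to 2.38-fold (median 1.51). Within genotypes the SD of the 18 had a median of 0.18, beside 0.21 for all features of the brightest 25%.

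**Figure D1:**
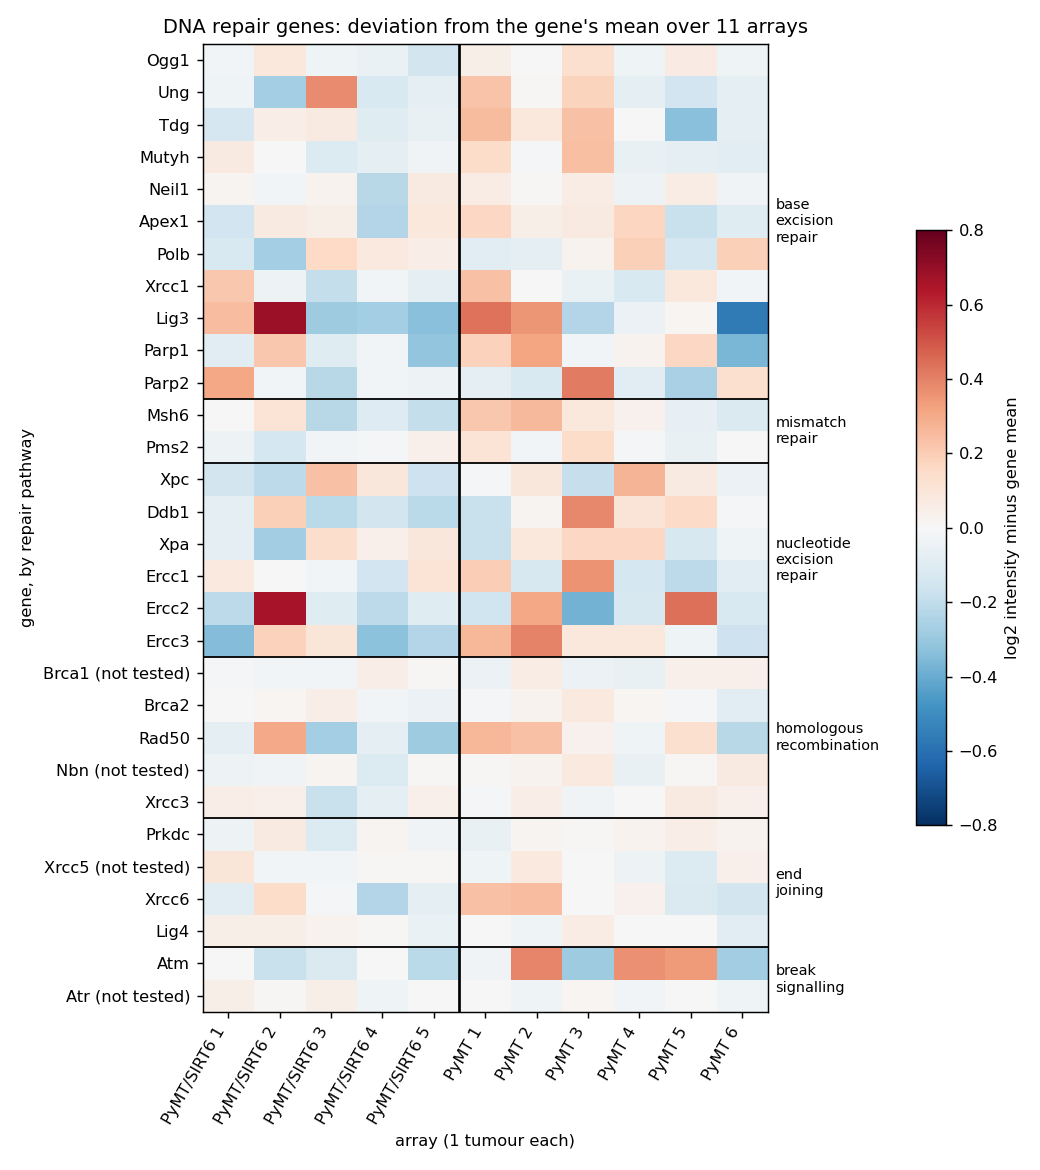
Deviation of each repair gene from its own mean over the 11 arrays, in log2 intensity, with genes grouped by pathway and PyMT/SIRT6 arrays left of PyMT arrays. Lig3 in PyMT/SIRT6 replicate 2 (11.29) and Ercc2 in the same array (10.94) stand out as high, and the 4 genes marked as not tested show little variation.

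Promoter sequence is shown for 3 genes: Mutyh and Tdg, glycosylases whose slopes on mitotic content had the smallest unadjusted p among the repair genes, and Xrcc6, a Ku subunit whose promoter held the single E2F-type match among the genes of the brightest 25% that had a window. The 250 bases before a start listed in the RefSeq promoter table (GRCm38.p6) were taken, in which 24 of the 30 genes had a window. The annotated gene's own first base lies inside the window for Mutyh and Tdg and upstream of it for Xrcc6, so other transcripts can begin elsewhere. E2F factors drive genes of S phase, and NF-Y binds CCAAT boxes, which are common in cell cycle promoters. The motifs searched on both strands were TTTGGCGC, TTTCGCGC and TTTCCCGC for E2F and CCAAT for NF-Y; capitals mark matches, and in the sequences shown no matches overlapped. Mutyh has 2 start windows in the table, 1 of which is shown.
Mutyh, chr4:116807484-116807733, plus strand: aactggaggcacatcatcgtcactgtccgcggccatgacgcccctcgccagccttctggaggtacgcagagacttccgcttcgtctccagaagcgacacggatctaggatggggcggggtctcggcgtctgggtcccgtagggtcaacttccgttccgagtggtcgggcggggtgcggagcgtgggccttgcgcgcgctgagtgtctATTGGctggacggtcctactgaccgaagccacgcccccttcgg
Tdg, chr10:82629588-82629837, plus strand: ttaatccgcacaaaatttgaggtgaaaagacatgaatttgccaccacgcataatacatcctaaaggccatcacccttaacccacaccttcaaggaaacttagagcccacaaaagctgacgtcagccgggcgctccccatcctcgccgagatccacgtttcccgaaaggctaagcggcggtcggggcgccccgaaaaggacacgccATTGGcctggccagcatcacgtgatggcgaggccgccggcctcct
Xrcc6, chr15:82016119-82016368, plus strand: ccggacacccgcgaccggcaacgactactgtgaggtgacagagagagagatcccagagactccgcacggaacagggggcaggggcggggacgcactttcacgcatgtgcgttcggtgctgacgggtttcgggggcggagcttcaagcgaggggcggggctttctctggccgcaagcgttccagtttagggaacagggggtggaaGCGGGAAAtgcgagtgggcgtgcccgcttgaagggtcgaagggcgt
An E2F motif was found in 2 of 24 genes, Brca2 and Xrcc6, beside 1.53% of all 32851 promoter windows. A CCAAT box was found in 13 of 24 genes (Apex1, Atm, Brca1, Ercc2, Msh6, Mutyh, Ogg1, Pms2, Tdg, Xpa, Xrcc1, Xrcc3 and Xrcc5), beside 33.8% of all windows. The windows of Ercc1 and Ung, described with Mutyh and Tdg for their slopes, held no match to any of the motifs. The shares of all windows count windows, while the repair counts are of genes (24 genes with 26 windows), so the units differ. These matches are descriptions of the letters in the windows only.

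No tested repair gene passed the threshold between genotypes. Of 26 genes, 4 were higher and 22 lower on average in PyMT/SIRT6 tumours, with a median difference of −0.05 on the log2 scale, beside −0.01 over all 14726 features, of which 53.1% were lower. By limma with Benjamini-Hochberg adjustment over all features 0 of 26 passed, the smallest adjusted p being 0.983, and 0.0136% of all features passed. At an unadjusted p under 0.05 limma gave 0 of 26, where 4.43% of all features were found, and the exact permutation test also gave 0 (smallest p 0.113). By the probe used, the genotypes were free of overlap in no repair gene, as they were in 0.489% of all features. Of the further probes, a dim Neil1 probe below the filter differed by −0.07 without overlap (exact permutation p = 0.00216). A Mutyh probe below the filter differed by −0.10 (exact permutation p = 0.00649). These were the smallest p-values of that test among the 68 probes of the repair genes. The 95% intervals of all 26 differences included 0. Their lowest bound was −0.53 (Ercc3, 0.694-fold) and their highest 0.49 (Lig3, 1.4-fold). In the brightest 25% of features, 15 of 18 repair genes were lower on average (median −0.07), beside 55.1% of all features there (median −0.02). With the muscle list as covariate 7 of 26 genes were higher and 19 lower (median −0.04). Without the 4 muscle-rich arrays, which leaves 2 PyMT/SIRT6 and 5 PyMT arrays, 8 were higher and 18 lower (median −0.03).

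**Figure D2:**
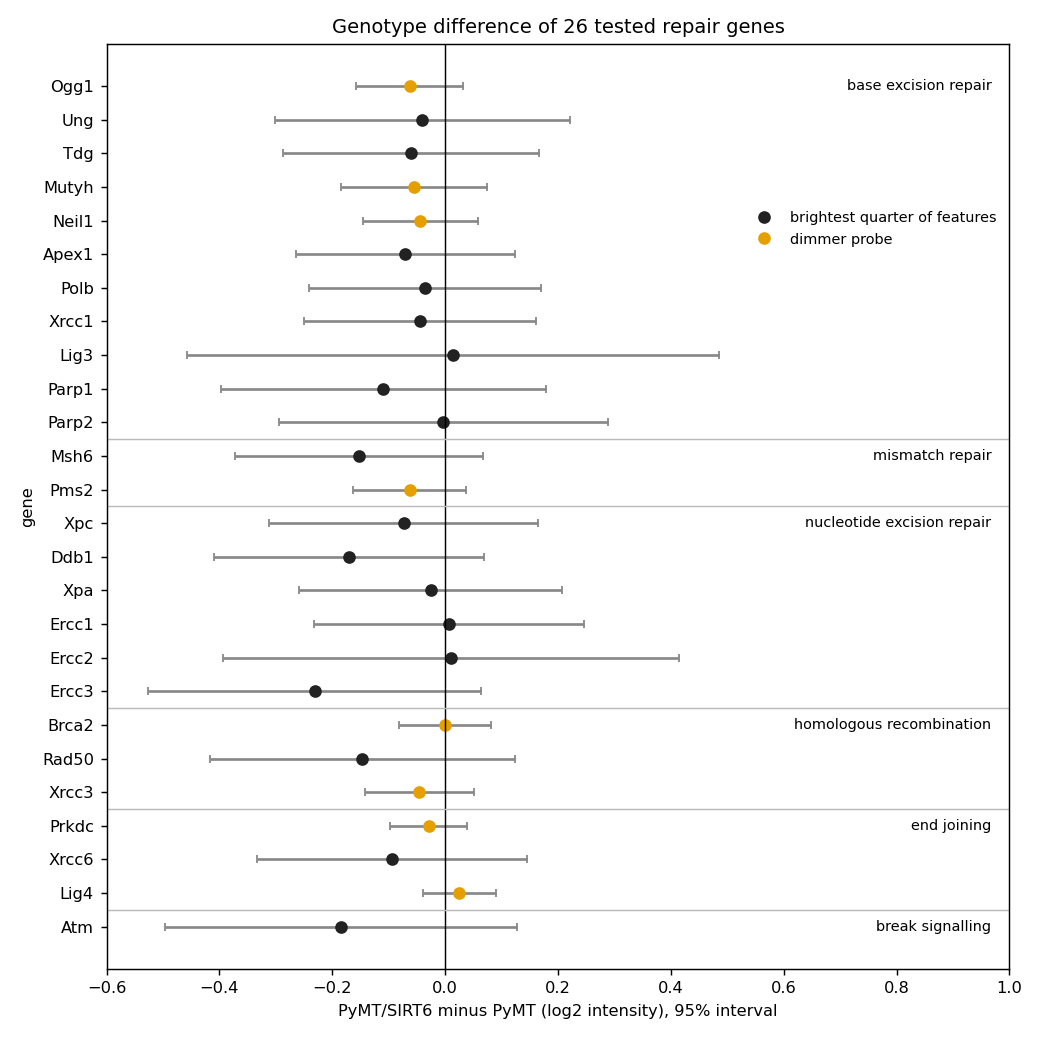
Genotype difference (PyMT/SIRT6 minus PyMT, log2 intensity) of the 26 tested repair genes by pathway, with limma's 95% interval. Points are limma estimates, dark for genes in the brightest 25% of features and orange for dimmer probes; all 26 intervals cross 0.

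In base excision repair 10 of 11 genes averaged lower in PyMT/SIRT6 tumours, by small amounts (median −0.04). Parp1, which senses strand breaks, had the largest difference. It read 9.84, 10.14, 9.83, 9.90 and 9.61 in PyMT/SIRT6 replicates 1 to 5, and 9.56 (lowest), 10.02 (median) and 10.24 (highest) in the 6 PyMT arrays. All 5 PyMT/SIRT6 values lay inside the PyMT range, and the difference was −0.11 ± 0.13 (SE; limma adjusted p = 0.983). Its relative Parp2 differed by −0.00 ± 0.14. Among the glycosylases, the uracil-removing Ung differed by −0.04 ± 0.12, Tdg, which acts on mispaired thymine, by −0.06 ± 0.11, and Ogg1, which removes oxidised guanine, by −0.06 ± 0.04. Mutyh, which removes adenine opposite oxidised guanine, differed by −0.06 ± 0.06 and Neil1, acting on oxidised pyrimidines, by −0.04 ± 0.05. The downstream enzymes were as close: the endonuclease Apex1 at −0.07 ± 0.09 (−0.02 with the muscle covariate), the polymerase Polb at −0.04 ± 0.10 and the scaffold Xrcc1 at −0.04 ± 0.10.

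Lig3, the ligase that partners Xrcc1, had the widest range over the arrays of all repair genes. Its values were 10.85, 11.29, 10.32, 10.33 and 10.27 in PyMT/SIRT6 replicates 1 to 5, and 10.04, 10.59 and 11.04 as lowest, median and highest in PyMT arrays. PyMT/SIRT6 replicate 2 was the highest of all 11 arrays and PyMT replicate 6 the lowest, 2.38-fold apart. Its 3 other probes above the filter differed by −0.10, −0.10 and −0.07. The genotype difference of the probe used was 0.01 ± 0.22 (95% interval −0.46 to 0.49; limma adjusted p = 0.999), with −0.16 when PyMT/SIRT6 replicate 2 was left out and 0.21 when the 4 muscle-rich arrays were.

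In mismatch repair both genes averaged lower. Msh6, a subunit of the mismatch sensor, read 9.14, 9.25, 8.92, 9.04 and 8.95 in PyMT/SIRT6 replicates 1 to 5, and 9.03, 9.21 and 9.40 as lowest, median and highest in PyMT arrays. The groups overlapped, with 4 of 5 PyMT/SIRT6 arrays below the PyMT mean, and the difference was −0.15 ± 0.10 (limma adjusted p = 0.983). A second Msh6 probe differed by −0.19. Pms2 differed by −0.06 ± 0.05.

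In nucleotide excision repair 2 of 6 genes averaged higher and 4 lower. Ercc3, a helicase of the TFIIH complex, had the largest difference of all repair genes. Its values were 10.61, 11.14, 11.05, 10.63 and 10.72 in PyMT/SIRT6 replicates 1 to 5, and 10.79, 11.04 and 11.35 as lowest, median and highest in PyMT arrays. PyMT/SIRT6 replicates 1, 4 and 5, the 3 arrays of that genotype rich in muscle markers, lay below every PyMT array, while replicates 2 and 3 lay at or above the PyMT median. PyMT replicate 5, with the highest muscle mean of all arrays (12.64), read 10.92, above PyMT replicate 6 (10.79, muscle mean 8.72). The part of muscle content was not tested. The genotype difference of Ercc3 was −0.23 ± 0.14, or 0.852-fold (limma adjusted p = 0.983). With the muscle covariate on all 11 arrays it was −0.15, and without the 4 muscle-rich arrays, which leaves 2 PyMT/SIRT6 arrays, it was 0.01. A second Ercc3 probe differed by −0.12.

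Ercc2, the other TFIIH helicase, stood apart in a single array. It read 10.94 in PyMT/SIRT6 replicate 2 and between 10.07 and 10.18 in the other 4 arrays of that genotype, against 9.90, 10.16 and 10.72 as lowest, median and highest in PyMT arrays. The difference was 0.01 ± 0.19, with −0.15 when that array was left out and −0.01 with the muscle covariate. It was 0.37 without the 4 muscle-rich arrays, where PyMT/SIRT6 replicate 2 is 1 of 2 arrays left of its genotype. The damage sensors differed by −0.07 ± 0.11 for Xpc and −0.17 ± 0.11 for Ddb1 (−0.16 with the muscle covariate and −0.07 without the muscle-rich arrays), the damage verifier Xpa by −0.03 ± 0.11 and the nuclease subunit Ercc1 by 0.01 ± 0.11.

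Among break repair genes, Rad50, an ATPase of the break-sensing nuclease complex, read 8.62, 9.00, 8.42, 8.62 and 8.41 in PyMT/SIRT6 replicates 1 to 5, and 8.47, 8.77 and 8.96 as lowest, median and highest in PyMT arrays. Replicate 2 was the highest of all 11 arrays and the others of its genotype lay below the PyMT median. The difference was −0.15 ± 0.13 (limma adjusted p = 0.983). Brca2, which loads the recombinase, differed by −0.00 ± 0.04 and the recombinase paralogue Xrcc3 by −0.05 ± 0.04, both on dim probes.

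Xrcc6 of end joining read 10.67, 10.90, 10.74, 10.52 and 10.68 in PyMT/SIRT6 replicates 1 to 5, and 10.61, 10.77 and 11.00 as lowest, median and highest in PyMT arrays. The groups overlapped and the difference was −0.09 ± 0.11 (limma adjusted p = 0.983). The dim genes Prkdc and Lig4 differed by −0.03 ± 0.03 and 0.03 ± 0.03.

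The kinase gene Atm read 9.16, 8.98, 9.04, 9.16 and 8.94 in PyMT/SIRT6 replicates 1 to 5, and 8.87, 9.31 and 9.55 as lowest, median and highest in PyMT arrays. All PyMT/SIRT6 values lay below the PyMT mean of 9.24, but PyMT arrays fell into 3 high values (9.50 to 9.55) and 3 lower ones (8.87 to 9.13), giving an SD of 0.32 against 0.10. The difference was −0.18 ± 0.14 (limma adjusted p = 0.983). Its 2 other probes above the filter differed by −0.06 and −0.07, and the mean of its probes by −0.08.

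**Figure D3:**
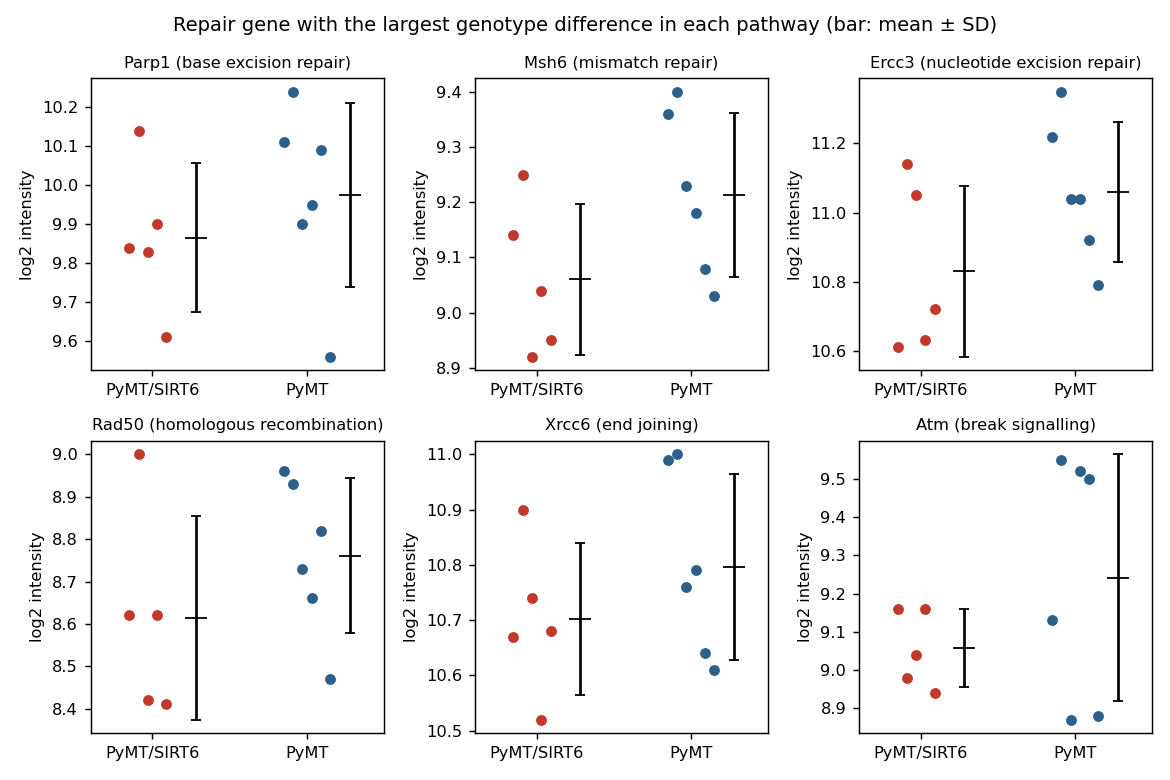
Log2 intensity per array of the gene with the largest genotype difference in each pathway, PyMT/SIRT6 left and PyMT right, with the mean ± SD (n = 5 and 6). The genotypes overlap in all 6 genes, and the vertical axes differ between panels and do not start at 0.

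PyMT/SIRT6 replicate 2 carried much of the spread among repair genes of its group. It held the highest value of all 11 arrays for 3 of the 18 brighter genes (Lig3, Ercc2, Rad50) and the lowest for 4 (Ung, Polb, Xpc, Xpa), where an even spread gives 1.64 of each. Without it, 4 genes had an unadjusted p under 0.05 in limma: Ercc3 (−0.31), Rad50 (−0.24), Ddb1 (−0.24) and Ogg1 (−0.09), each with an adjusted p of 0.597. Over all features 1227 of 14726 had such a p without that array, against 653 with it. PyMT replicate 2 held the highest value for 5 of the 18 genes and the lowest for 0, and PyMT replicate 6 was above the gene's own mean in only 2 of 18. The 10 genes with further probes above the filter had 17 such probes. These correlated with the probe used at r from 0.38 to 0.94 over the arrays (median 0.73), and 12 of 17 had a genotype difference of the same sign.

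The other genes of the same pathways also averaged mostly lower, but not in every pathway. Of 90 listed, 80 had a probe and 65 were tested. In PyMT/SIRT6 tumours 21 were higher and 44 lower on average, with a median of −0.03, beside 53.1% lower over all features. The nucleotide excision genes among them split 7 higher and 7 lower, and the end-joining genes 2 higher and 1 lower. In limma 0 of 65 passed, and 1 had an unadjusted p under 0.05. This was the helicase Brip1 at −0.14 ± 0.06 (limma adjusted p = 0.983), on a dim probe. It read 7.45 ± 0.05 in PyMT/SIRT6 tumours and 7.59 ± 0.14 in PyMT tumours (SD, n = 5 and 6). Its difference was −0.12 with the muscle covariate and −0.09 with the mitosis mean described below in the model. In both these fits 0 of 65 had an unadjusted limma p under 0.05. Next in the main fit came the checkpoint adaptor Topbp1 (0.07 ± 0.04, also dim), the TFIIH subunit Gtf2h4 (−0.13 ± 0.08) and the damage recognition partner Rad23b (−0.15 ± 0.10).

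For proliferation, Mki67 was not analysed here, and the mean of 15 mitosis genes took its place. This mean was 8.84, 8.61, 8.73, 8.64 and 8.50 in PyMT/SIRT6 replicates 1 to 5 and 9.11, 8.77, 8.97, 8.73, 8.47 and 8.60 in PyMT replicates 1 to 6. It spanned 1.57-fold in all, and PyMT replicates 1 and 3 were the highest. The genotypes overlapped, at 8.67 ± 0.13 in PyMT/SIRT6 tumours and 8.77 ± 0.24 in PyMT tumours (SD, n = 5 and 6; exact permutation p = 0.4). Only 2 of the 15 genes in this mean averaged higher in PyMT/SIRT6 tumours, and 3 of the 15 lay below the intensity filter. The genotype differences of the repair genes with this mean in the model gave 0 calls, 7 genes higher and 19 lower. In the same fit the other genes of the pathways gave 0 calls, 34 higher and 31 lower (median 0.00), beside 52.3% lower over all features.

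Repair genes mostly had positive slopes on the mitosis mean, but no slope passed the threshold. With genotype in the model, 19 of 26 slopes were positive and 7 negative. Their median was 0.24 log2 units per log2 unit of the mitosis mean, beside 0.00 over all 14714 features, of which 50.7% were positive. By limma 0 of 26 passed (smallest adjusted p 0.290), and 0% of all features passed. At an unadjusted p under 0.05 there were 4 genes with positive slopes, where 6.1% of all features were positive at that level, and 0 with negative slopes. With deposit order (the first 6 and last 5 accessions) as a block, the split was 13 positive and 13 negative with a median of 0.02, the mitosis mean being higher in the samples deposited first. With the muscle list as covariate it was 17 and 9 with a median of 0.10. Without PyMT replicate 6 the median slope was 0.11, and without PyMT replicate 5 a single repair gene had an unadjusted p under 0.05, where 591 of 14714 features had one, against 1731 with that array.

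The 4 genes were 3 glycosylases and a nuclease subunit. With deposit order as a block none of the 4 kept an unadjusted limma p under 0.05 (Mutyh 0.0700, Tdg 0.145, Ercc1 0.148, Ung 0.206). With the muscle covariate (Mutyh 0.00448, Tdg 0.161, Ercc1 0.0627, Ung 0.179), or without the 4 muscle-rich arrays (Mutyh 0.0230, Tdg 0.0724, Ercc1 0.0715, Ung 0.118), Mutyh alone did. Over all 14714 features, such a p was found for 2651 with the block, 777 with the muscle covariate and 566 without the muscle-rich arrays. With the block 2 of the 26 repair genes had one, 1 with a positive and 1 with a negative slope. Mutyh read 7.50, 7.43, 7.32, 7.36 and 7.40 in PyMT/SIRT6 replicates 1 to 5, and 7.34, 7.40 and 7.67 as lowest, median and highest in PyMT arrays. Its 2 highest arrays, PyMT replicates 3 and 1, were also the 2 highest in the mitosis mean. The same arrays were the highest in the mean of 3 erythroid markers (9.53 and 10.07, against at most 9.08 elsewhere). PyMT replicate 3 had the lowest luminal mean (9.72). The part of erythroid content in the slopes was not tested. The slope of Mutyh was 0.43 ± 0.12 (limma adjusted p = 0.290) on a dim probe, with r = 0.79 (permutation p = 0.0048, adjusted 0.254) and rho = 0.65 (permutation p = 0.0374, adjusted 0.602) over 11 arrays.

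Tdg read 8.07, 8.26, 8.28, 8.11 and 8.15 in PyMT/SIRT6 replicates 1 to 5, and 7.87, 8.25 and 8.46 as lowest, median and highest in PyMT arrays. It was highest in PyMT replicates 1 and 3 and lowest in the muscle-rich PyMT replicate 5. The slope was 0.69 ± 0.23 (limma adjusted p = 0.332), with r = 0.78 (permutation p = 0.00445, adjusted 0.25) and rho = 0.66 (permutation p = 0.0296, adjusted 0.589). With the muscle covariate the slope was 0.40.

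Ercc1 read 8.49, 8.41, 8.39, 8.26 and 8.52 in PyMT/SIRT6 replicates 1 to 5, and 8.20, 8.30 and 8.77 as lowest, median and highest in PyMT arrays. Its slope was 0.65 ± 0.26 (limma adjusted p = 0.373), with r = 0.66 (permutation p = 0.026, adjusted 0.373) and rho = 0.55 (permutation p = 0.0875, adjusted 0.649). Ung read 8.86, 8.62, 9.27, 8.77 and 8.82 in PyMT/SIRT6 replicates 1 to 5, and 8.74, 8.86 and 9.12 as lowest, median and highest in PyMT arrays. Its highest array, PyMT/SIRT6 replicate 3, had an intermediate mitosis mean. The slope was 0.65 ± 0.29 (limma adjusted p = 0.415), with r = 0.65 (permutation p = 0.0312, adjusted 0.390) and rho = 0.79 (permutation p = 0.00527, adjusted 0.490). With the mean of a gene's probes, in the mitosis genes too, the slope of Ung was 0.29. That setting changes the mitosis mean as well, and the slope of Ercc1, which has 1 probe, was 0.90 in it.

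Such correlations were computed for all 14714 features, and 0 passed after adjustment by Pearson's r (1037 positive at an unadjusted permutation p under 0.05) or by Spearman's rho. Without the 2 arrays farthest from the median of the mitosis mean, r was 0.74 for Mutyh, 0.55 for Tdg, 0.49 for Ercc1 and 0.51 for Ung. Within the 6 PyMT arrays it was 0.86, 0.95, 0.84 and 0.97 in the same order; no r is given for the 5 PyMT/SIRT6 arrays, under the minimum of 6. Among those arrays the order differed for Tdg, which was lowest (8.07) in the array with the highest mitosis mean of that genotype (8.84), and for Ercc1, which was highest (8.52) in the array with the lowest (8.50). Mutyh was highest there (7.50) in the array with the highest mitosis mean, and lowest (7.32) in the array with the next highest (8.73). Within the 6 samples deposited first it was 0.76, 0.57, 0.71 and 0.52.

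**Figure D4:**
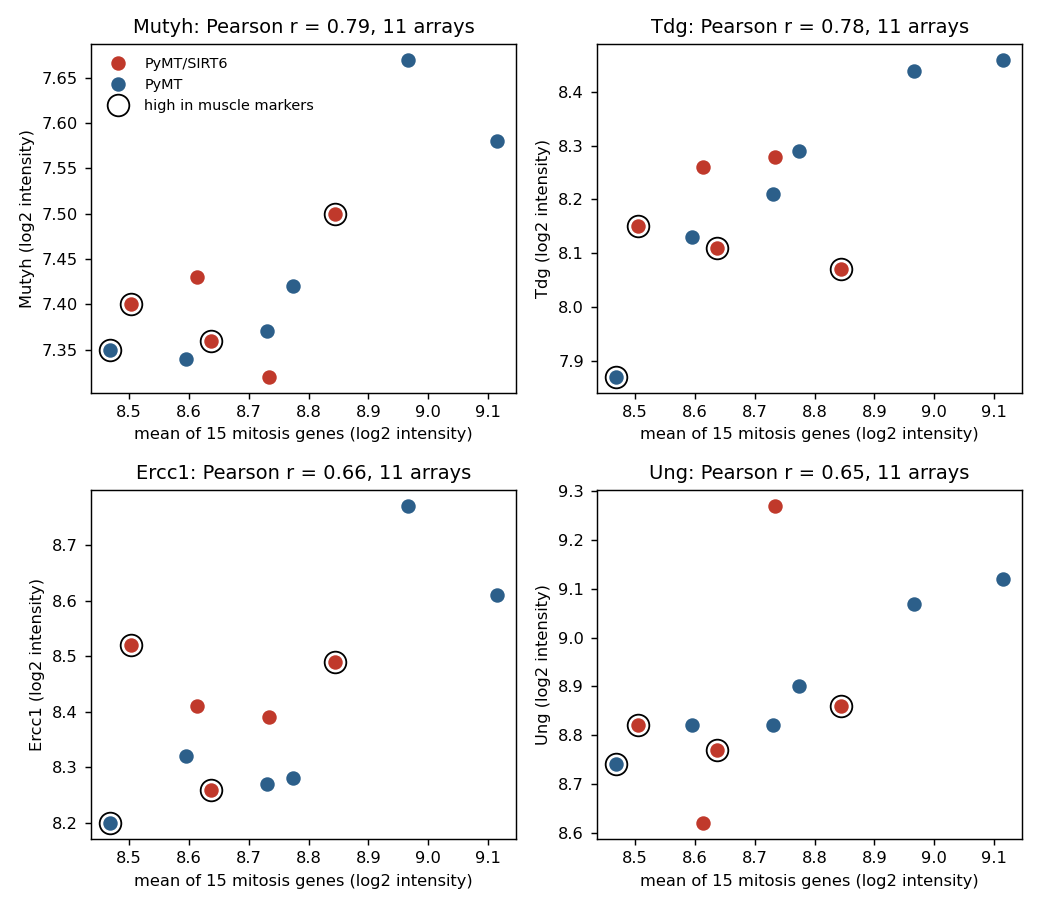
Log2 intensity of Mutyh, Tdg, Ercc1 and Ung against the mean of 15 mitosis genes in the 11 arrays, red for PyMT/SIRT6 and blue for PyMT; rings mark the 4 arrays high in skeletal muscle markers. PyMT replicates 1 and 3 lie at the right and high in all 4 panels, and neither axis starts at 0.

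By pathway, positive slopes were found in 10 of 11 base excision genes (median 0.28), with Lig3 at 0.73 ± 0.60, Parp2 at 0.48 ± 0.36, Apex1 at 0.28 ± 0.25, Xrcc1 at 0.28 ± 0.26, Parp1 at 0.26 ± 0.38, Ogg1 at 0.12 ± 0.12 and Neil1 at 0.07 ± 0.14, while Polb had −0.09 ± 0.27. Both mismatch genes were positive, Msh6 at 0.41 ± 0.27 and Pms2 at 0.23 ± 0.12. Nucleotide excision genes split 3 and 3 (median −0.05), with Ercc3 at 0.37 ± 0.38, Xpa at 0.00 ± 0.31, Ddb1 at −0.10 ± 0.32, Xpc at −0.12 ± 0.32 and Ercc2 at −0.85 ± 0.49, the most negative of all. In break repair, Xrcc6 had 0.39 ± 0.30, Rad50 0.29 ± 0.35, Lig4 0.12 ± 0.08 and Brca2 0.11 ± 0.10, against −0.14 ± 0.12 for Xrcc3, −0.16 ± 0.08 for Prkdc and −0.29 ± 0.41 for Atm. None of these slopes passed in limma.

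Among the other genes of these pathways 51 of 65 slopes were positive (median 0.16), and 10 had an unadjusted p under 0.05, all positive, though 0 passed in limma. Of these 10, 6 belong to homologous recombination, out of 16 tested there, where 6.1% of all features had a positive slope at that level. Of the 3 tested recombination genes under study (Brca2, Rad50 and Xrcc3), 0 had such a slope. Positive slopes were found in 13 of 14 of the other nucleotide excision genes (median 0.28) and in 14 of 16 recombination genes (0.18). In break signalling 14 of 18 were positive, and in base excision 7 of 11. Mismatch repair had 2 of 3 and end joining 1 of 3. Whether recombination differs from the other pathways was not tested. The smallest p-values belonged to the RecQ helicase Blm (1.19 ± 0.21, limma adjusted p = 0.113), Brip1 (0.47 ± 0.11), the recombination ATPase Rad54b (1.17 ± 0.28) and the nuclease Mre11a of the Rad50 complex (0.78 ± 0.19). Blm ranged from 7.86 to 8.75 over the arrays and Rad54b from 7.88 to 8.69. With deposit order as a block these 4 slopes were 1.54, 0.46, 1.58 and 0.72 in the same order.

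**Figure D5:**
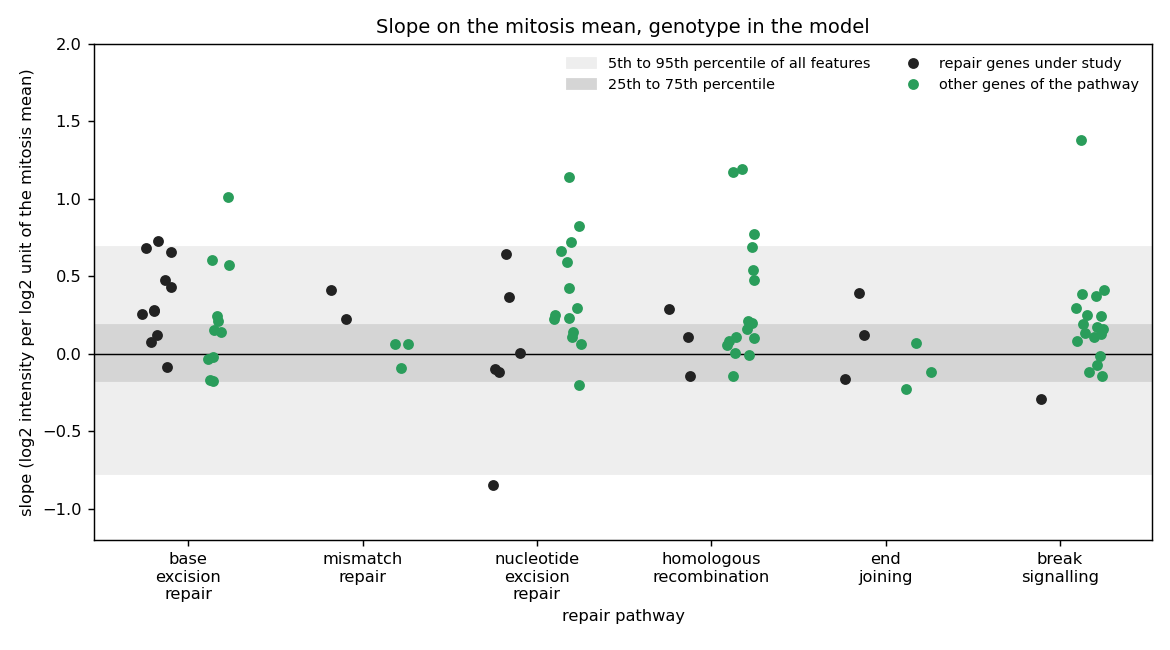
Slope of each tested repair gene on the mitosis mean (log2 intensity per log2 unit, genotype in the model) by pathway, black for the repair genes under study and green for the other genes of the pathway. Grey bands give the 25th to 75th and 5th to 95th percentiles of all features (−0.18 to 0.19 and −0.77 to 0.69). Most base excision and recombination genes lie above 0. So do 13 of 14 green nucleotide excision genes and 14 of 18 green break signalling genes.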

How the data were processed

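Total RNA of 11 mammary tumours was labelled as biotinylated cRNA and run on Illumina arrays (Mouse WG-6), per the labels' protocols. The values deposited by the authors are probe intensities on a linear scale; background treatment and normalization: not given in the sources used here. Sorted values of the arrays agreed within 1.08% and none lay below 116.7, so no further scaling was applied and no background subtraction was visible; fold changes of dim probes are understated.

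Of 45281 probes, 34885 had 1 gene symbol in the platform annotation, 18 had several and 10378 had none; 34807 matched RefSeq GRCm38.p6. The brightest probe was kept for each of 19057 genes and, with the probes with no symbol (10378) or several (18) kept as they were, gave 29453 features, and the dimmer 50% were left out (mean intensity below 158.6), leaving 14726. Log2 intensities were fitted with limma 3.58.1 in R 4.3.3 (lmFit, eBayes with trend) for genotype, and for the slope on the mitosis mean with genotype in the model and the mitosis genes left out, adjusted by Benjamini-Hochberg over all features at a threshold of 0.05. The planned measure Mki67 had no probe used here. Exact permutation tests covered all 462 splits, and correlations used 100000 permutations. Both fits were also tested on simulated data. Genes and lists were chosen with earlier results of these data known. All 31 genes were to be named, with full values for the largest genotype difference in each pathway and for any gene past the threshold, plus the 4 smallest p among other repair genes where none passed; the 4 genes plotted against mitosis, Lig3 and Ercc2 were given in full after their values were seen. Alternatives were other filters, probe means, background, centring, variance models, array weights, deposit order, muscle and luminal content and leaving out arrays.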

Additional observations from a re-analysis of the deposited data

Results flagged for a closer look

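Among 54 sets of values (26 repair genes and the mitosis mean in each genotype), 3 had an array far from the rest of its genotype by Dixon's criterion; chance flags about 1 in 20. Ercc2 read 10.94 in PyMT/SIRT6 replicate 2, against 10.07 to 10.18 in the other 4 arrays of that genotype. Neil1 read 7.20 in PyMT/SIRT6 replicate 4, against 7.40 to 7.49 in the others, on a dim probe. Prkdc read 7.26 in PyMT replicate 1, against 7.33 to 7.37 in the others, also on a dim probe. Causes were not tested.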

How the results depend on the processing

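In all 25 alternatives to the genotype fit, leaving out each array included, and in the exact permutation test, 0 repair genes and 0 of the other repair genes passed the threshold, and in all 28 alternatives to the slope fit 0 repair genes passed. The smallest adjusted p of a repair gene was 0.524 for genotype (Ercc3) and 0.0699 for slope (Mutyh), both with array weights. Over all features the genotype fit called 2; it called 4 with the mean of a gene's probes, with normexp background and with array weights, 1 with deposit order as block and with the proliferation covariate, 0 without the 4 arrays high in muscle markers and 0 by the exact permutation test, and 1 to 3 leaving out each array. The slope fit called 0 features; it called 1 with no filter and with the mean of probes, 3 with no genotype term, 4 with the lower 75% left out, 9 without the trend and 168 with array weights, and among the other repair genes 1 (Blm) without the trend and 3 (Blm, Brip1 and Mre11a) with array weights. The causes were not tested. Signs of uncalled differences turned in 58 of 639 genotype values and 35 of 717 slopes. Top2a and the mean of Mcm2 to Mcm7, chosen after seeing the data in place of the mitosis mean, gave 0 slope calls over all features. The luminal covariate, also chosen then, gave 2 genotype calls and 0 slope calls, none in a repair gene. With Top2a the unadjusted limma p was 0.00303 for Mutyh, 0.134 for Tdg, 0.114 for Ercc1 and 0.498 for Ung. With Mcm2 to Mcm7 it was 0.0278, 0.012, 0.158 and 0.164 in the same order. Unadjusted p was under 0.05 in 5 of 26 repair genes and 877 of 14714 features with Top2a. With Mcm2 to Mcm7 the counts were 8 of 26 and 1637 of 14708. Mki67 settings were not run, as no probe of it was used here. No paired analysis was possible because the labels give no shared replicate numbers. Dim signal limits what Brca1, Nbn, Xrcc5 and Atr can show.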
